A study of Rattus norvegicus with 15 samples.

Results

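The genes described here are the 10 central genes of Toll-like receptor and NF-kappaB signalling: the receptors and co-receptor Tlr2, Tlr4 and Cd14, the receptor ligand Hmgb1, the adaptor Myd88, the transcription factor subunits Nfkb1 and Rela, their inhibitor Nfkbia, and the inflammatory products Ccl2 and Il1b. They were found by symbol: every probe set of the array that the annotation names with exactly 1 of these symbols was taken. Of 31042 probe sets, controls apart, 11 were taken in this way, 2 of them for Hmgb1 and 1 for each other gene. A further probe set that lists Hmgb1 together with an Hmgb1 pseudogene was left out by this rule. The study asked which transcripts of the ventral tegmental area, a midbrain source of dopamine fibres to the forebrain, differ after loss-of-control drinking. Its title names alcohol-preferring (P) rats, selected over generations for drinking ethanol freely, whereas its design text mentions both high- and low-drinking lines and the labels of single arrays name none. They separate 7 rats given ethanol from 8 age-matched rats given water, with 1 array per animal, and give no dose, duration, sex, age or time since the last drink. Ethanol animal 3 was not analysed here. No genetic change or other agent is named for either group, and nothing says whether littermates were used.

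Toll-like receptors sit on microglia and other cells and bind microbial molecules or proteins released by damaged cells, such as HMGB1. Binding recruits MYD88 and a chain of kinases that end in the IkappaB kinase complex. That complex marks the inhibitor IkappaB-alpha, the product of Nfkbia, for destruction, which frees NF-kappaB dimers such as p50 (from Nfkb1) with p65 (from Rela) to enter the nucleus and switch on genes such as Il1b and Ccl2. Nfkbia is itself an NF-kappaB target, so the pathway rebuilds its own brake, and corticosteroids also induce it in many cells.

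The promoters of 3 members are shown because they carry letters of a kappaB site, the sequence to which NF-kappaB binds. RefSeq windows of 250 bases before to 50 bases after a transcript start (GRCr8 assembly) were at hand for 9 of the 10 members. The windows were searched on both strands for GGGAATTNC, letters chosen after the windows had been looked at, and the matches are in capitals. Each sequence runs 5′ to 3′ on the strand of the gene.
Nfkbia, chr6:78597023-78597322, minus strand: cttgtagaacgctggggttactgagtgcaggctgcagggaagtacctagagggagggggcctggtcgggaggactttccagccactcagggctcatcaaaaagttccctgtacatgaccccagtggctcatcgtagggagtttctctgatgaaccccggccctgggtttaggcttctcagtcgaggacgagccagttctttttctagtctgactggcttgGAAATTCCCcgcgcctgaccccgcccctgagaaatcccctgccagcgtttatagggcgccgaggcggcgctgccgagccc
Nfkb1, chr2:226805413-226805712, minus strand: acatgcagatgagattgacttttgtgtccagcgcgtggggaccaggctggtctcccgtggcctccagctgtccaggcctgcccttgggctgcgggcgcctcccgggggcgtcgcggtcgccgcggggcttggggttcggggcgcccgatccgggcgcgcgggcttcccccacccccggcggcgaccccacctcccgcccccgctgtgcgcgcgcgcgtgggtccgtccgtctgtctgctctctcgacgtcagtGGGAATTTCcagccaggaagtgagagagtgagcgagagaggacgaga
Tlr2, chr2:171504508-171504807, minus strand: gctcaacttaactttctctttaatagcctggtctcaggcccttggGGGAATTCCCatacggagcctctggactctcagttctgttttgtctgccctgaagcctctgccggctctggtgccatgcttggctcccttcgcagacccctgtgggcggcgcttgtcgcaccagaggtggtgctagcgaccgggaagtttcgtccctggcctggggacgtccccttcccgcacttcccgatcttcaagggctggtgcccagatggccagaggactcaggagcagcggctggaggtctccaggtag

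GGGAATTNC was found in 3 of the 9 member windows, those of Nfkbia, Nfkb1 and Tlr2, and in 0.759% of all 33469 windows. The letters were chosen with the member windows in view, so the first share is no measure of enrichment. In Nfkbia the match begins 30 bases before the start and reads GGGAATTTC on the opposite strand. In Nfkb1 the same letters begin at base 4 after the start, on the strand of the gene. In Tlr2 the match begins 205 bases before the start and reads GGGAATTCC, and because these letters are nearly their own reverse complement, a second, overlapping match lies on the opposite strand. A match describes letters and not a bound site.

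None of the members was called different between ethanol and water rats. Probe sets were tested if their mean log2 level over the 15 arrays reached the 40th percentile (6.94), and a call is a Benjamini-Hochberg adjusted p below 0.05 in limma over all 18625 probe sets that did. Of the 11 member probe sets, 6 were kept (Tlr2, Myd88, Nfkb1, Rela, Nfkbia and 1 of Hmgb1), and 0 of these 6 were called, against 0.929% of all kept probe sets. Only Nfkbia, lower in ethanol rats, was below 0.05 before adjustment (1 of 6, against 12.1% of kept probe sets). The exact permutation test, adjusted over the same 18625 probe sets, called 61 of them and 0 of the 6. Its smallest possible permutation p, 1.55e-04, adjusted to 0.0474, and the next, 3.11e-04, to 0.0536. It could therefore call only a probe set at that smallest p. The other 5 probe sets (Tlr4, Cd14, Ccl2, Il1b and the second of Hmgb1) were too dim to be kept. Fitted without the filter, where 0.448% of 31042 probe sets were called, 0 of the 11 passed and Nfkbia was again the only member with an unadjusted p below 0.05. In no member probe set did the 2 groups separate without overlap, which they did in 0.623% of kept probe sets.

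The median difference, ethanol minus water, over the 11 member probe sets was 0.0195 log2 units, against 0.00867 over all probe sets. Means were higher in ethanol rats for 7 of the 11 and lower for 4. The 95% interval of the difference included 0 in 10 of the 11, all but Nfkbia. In 8 of the 11, all but Nfkbia, Tlr2 and Myd88, it lay wholly within 0.3 log2 units of 0. These 8 include the 5 dim probe sets, where the deposited values compress differences, so their intervals do not bound a shift of the transcript. Because the tissue is a bulk sample, fewer cells of a type and less RNA per cell cannot be told apart in any of these values.

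**Figure D1:**
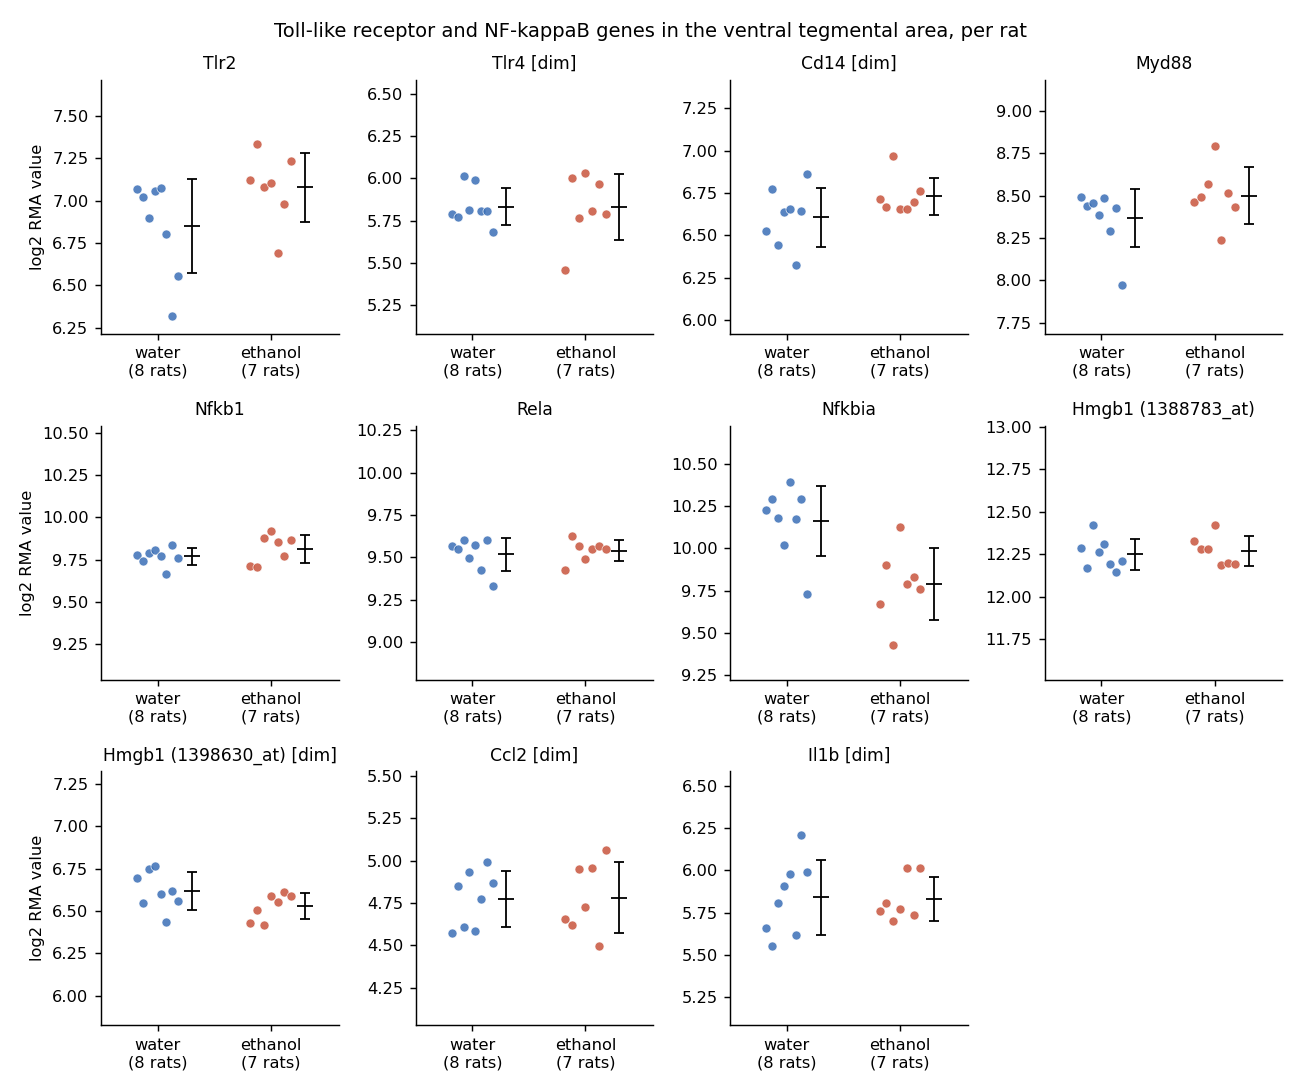
Deposited log2 RMA values of the 11 member probe sets, 1 point per rat (blue water, red ethanol), with the group mean and SD in black beside the points. Every panel spans the same 1.5-unit range on its own level, and "dim" marks probe sets below the level filter. Nfkbia stands out by position, with ethanol rats between 9.43 and 10.13 and water rats between 9.73 and 10.39.

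Nfkbia, the inhibitor that holds NF-kappaB in the cytoplasm, had the largest difference of the members. Its lowest, median and highest log2 values were 9.43, 9.79 and 10.13 in ethanol rats and 9.73, 10.20 and 10.39 in water rats. All 7 ethanol rats lay below the water mean and 2 of them, rats 1 and 4, lay below every water rat, while water rats 4 and 8 fell among the ethanol values. The mean was 9.79 ± 0.21 (SD, n = 7) against 10.16 ± 0.21 (SD, n = 8), a log2 difference of -0.38 (SE 0.10, 95% interval -0.59 to -0.17, limma adjusted p = 0.101). On the linear scale this is 0.771 of the water level, with an interval from 0.666 to 0.891. The exact permutation p was 0.00575 before adjustment, and 1.55% of all kept probe sets had a limma p as small as that of Nfkbia. It therefore misses the threshold over the whole array although its own interval excludes 0.

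Whether Nfkbia was called turned on a few arrays. Without water rat 8, whose Nfkbia value was the lowest of its group, the difference was -0.44 and the adjusted p 0.0213, in a fit that called 0.966% of probe sets. Without ethanol rat 5, whose value was the highest of its group, it was -0.43 with an adjusted p of 0.0462 (0.741% called). The call was also made with arrays weighted by their quality (adjusted p = 0.0398, 1.23% called), with a covariate for the first principal component (0.0448, 2.66% called) and, in a setting chosen after seeing the data, without water rats 7 and 8 together (0.0443, 0.789% called). These 2 rats stood at 1 end of that component, and water rats 1, 3 and 5 at the other. The component was computed from values with each group's mean taken away. As a covariate it therefore left the Nfkbia difference at -0.38 and changed only its error. Calls made with it are no adjustment for an imbalance between the groups. Leaving out any of the other 13 rats gave adjusted p between 0.107 and 0.197. The direction was the same in every fit, from -0.44 to -0.32.

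**Figure D2:**
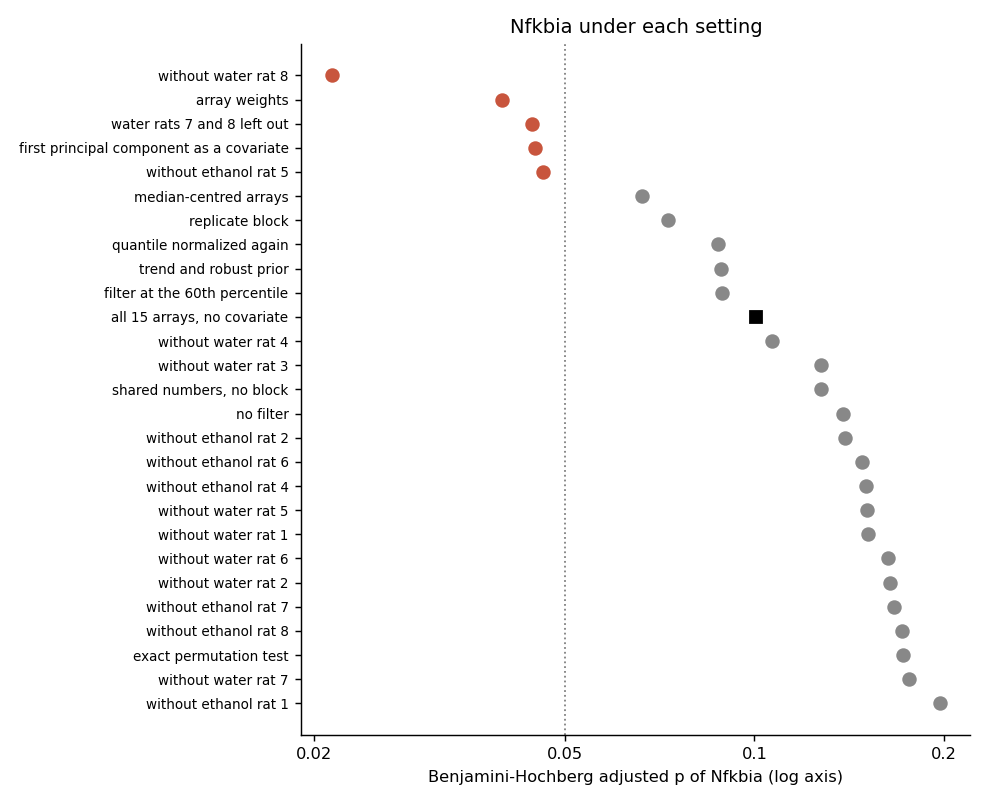
Adjusted p of Nfkbia (log axis) under each setting, 1 point per setting, with red points past the threshold of 0.05 (dotted line) and the black square for the fit of all 15 arrays without a covariate. The 5 red settings reach from 0.0213 to 0.0462, and all others lie at or above 0.0662.

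Corticosteroid-responsive transcripts, like Nfkbia, had lower means in ethanol rats. Of the 13 kept genes of a list of such transcripts, 6 were called lower, 0 higher, with 13 of 13 means below those of water rats and a median of -0.40 log2 units. By probe set, 6 of 16 kept were called lower, against 0.542% of all kept probe sets. The list was drawn up with earlier results of these arrays known, so its count is not independent evidence of a direction. Tsc22d3 (Gilz), which the glucocorticoid receptor switches on directly, fell by 0.34 log2 units (limma adjusted p = 0.00201), and Ddit4, an inhibitor of mTOR, fell by 0.64 (limma adjusted p = 0.00587). Nfil3, a transcription factor, fell by 0.48 (limma adjusted p = 0.00587), and Gpd1, a glycerol phosphate dehydrogenase of oligodendrocytes, fell by 0.81 in the brighter of its probe sets (limma adjusted p = 0.00592). The mean of the list ran from 10.11 to 10.46 in ethanol rats and from 10.40 to 10.92 in water rats, and only water rat 8 fell within the ethanol range. Oligodendrocyte markers were also lower: 3 of 9 kept genes were called (3 of 15 kept probe sets, against 0.542% of all kept). Their median was -0.19, and the list mean ran from 13.23 to 13.56 in ethanol and from 13.48 to 13.92 in water rats. No astrocyte, endothelial or mural cell or dopamine neuron marker was called, with medians of -0.054, 0.00295 and 0.16. Markers of meninges and choroid plexus were lower too, with a median of -0.32 over 5 kept genes, none of them called. Their list mean ran from 9.59 to 10.20 in ethanol and from 9.81 to 10.50 in water rats, with all 7 ethanol rats below the water mean. Without the filter 1 of the 14 probe sets of this list was called, against 0.448% of all probe sets. It was a dim one of the collagen Col1a1 (-0.52, limma adjusted p = 0.0383). The part of any of these transcripts in the Nfkbia difference was not tested.

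Within groups, after each group's mean had been taken away, Nfkbia and the corticosteroid list mean varied together at Pearson r = 0.64 (n = 15, permutation p = 0.0118) and Spearman rho = 0.675 (permutation p = 0.00876). Over the 27 relations computed, these became adjusted permutation p of 0.159 and 0.118. Without water rat 8 and ethanol rat 1, the arrays farthest from the median of the list mean, r was 0.40 (permutation p = 0.160), which no longer passed before adjustment. Nfkbia and Myd88 gave r = 0.65 (permutation p = 0.0193, adjusted 0.174) and rho = 0.604 (permutation p = 0.0214, adjusted 0.182). Without water rat 8 and ethanol rat 6 this was r = 0.52 (permutation p = 0.159). None of the 27 relations, 15 between the 6 kept members and 12 with the means of the corticosteroid and microglia lists, passed after adjustment by either coefficient.

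Among the receptors, Tlr2, which pairs with Tlr1 or Tlr6 to sense lipoproteins, had the largest difference. Its lowest, median and highest log2 values were 6.69, 7.10 and 7.33 in ethanol rats and 6.32, 6.96 and 7.07 in water rats. In 5 of 7 ethanol rats Tlr2 exceeded every water rat, narrowly in rats 1, 4 and 5 (7.12, 7.08 and 7.10, against 7.07). Ethanol rat 6 was low and water rats 7 and 8 were lower still. The difference was 0.23 log2 units (SE 0.12, 95% interval -0.018 to 0.47, limma adjusted p = 0.452), which did not pass. It was 0.0912 without water rats 7 and 8, and 0.15 without water rat 7 alone. The transcript lay close to the filter, with a mean over all arrays of 6.96 against 6.94. Its mean was 6.85 in water rats and 7.08 in ethanol rats, so it was kept only through the ethanol rats.

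Tlr4, the receptor of lipopolysaccharide, was dim and showed nearly equal means. Its values ran from 5.46 to 6.03 with a median of 5.80 in ethanol rats and from 5.68 to 6.01 with a median of 5.80 in water rats. The difference was -0.00297 log2 units (95% interval -0.16 to 0.16, limma without the filter, adjusted p = 0.993). Some deposited values were tied: 3 arrays held the same Tlr4 value of 5.80, 3 the same Cd14 value of 6.65 and 3 the same Rela value of 9.55, to 6 decimals.

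Cd14, which hands lipopolysaccharide to Tlr4, ran from 6.65 to 6.97 with a median of 6.70 in ethanol rats and from 6.32 to 6.86 with a median of 6.64 in water rats. All 7 ethanol rats lay above the water mean, but 6 of them lay within the water range. The difference was 0.12 log2 units (95% interval -0.0299 to 0.28, limma without the filter, adjusted p = 0.601). Ly96, the partner that completes the lipopolysaccharide receptor (named after its value was seen), was at 0.096 log2 units (SE 0.076, limma adjusted p = 0.641).

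Microglial markers, which mark the cells that carry most of these receptors in brain, were higher in ethanol rats. Of 15 kept marker genes 6 were called higher and 0 lower, all 15 had higher means, and the median difference was 0.32 log2 units. By probe set, 7 of 17 kept were called higher, against 0.387% of all kept probe sets. Like the other lists, this list of markers was drawn up with earlier results of these arrays known, so its count is not independent evidence. The 4 with the smallest p were Gpr34 (log2 0.89), Fcer1g (0.40), Trem2 (0.52, its dimmer probe set) and Tyrobp (0.41), with limma adjusted p from 4.46e-04 to 0.00824. The brighter probe set of Trem2 was at 0.32 (limma adjusted p = 0.0240). The mean of the list ran from 9.47 to 9.74 in ethanol rats and from 9.09 to 9.51 in water rats, with water rat 5 within the ethanol range. The differences of Tlr2, Cd14 and Myd88 were smaller than the median of the list, a comparison that was not tested. Cd14 was dim and Tlr2 close to the filter, where the deposited values compress differences, so their sizes cannot be set against those of brighter markers.

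Among monocyte and border macrophage markers, Cd74, Plac8 and Lyz2 were kept, and none was called although all 3 means were higher in ethanol rats, by 0.15 to 0.92 log2 units. Plac8 was kept only through its ethanol mean (7.26, against 6.85 in water rats). The dim probe sets of the same list, fitted without the filter, included border macrophage markers on the other side: Lyve1 at -0.50 and -0.83 in its 2 probe sets, Mrc1 at -0.68 and Cd163 at -0.19, none called. Mrc1, with a mean over all arrays of 6.940, fell just under the filter of 6.944, although its water mean was 7.26. That all 3 kept means were higher thus depended on where the filter was set. Over all 11 probe sets of the list the median was 0.00687. The mean of the 3 kept markers ran from 8.475 to 9.203 in ethanol rats and from 7.975 to 8.691 in water rats. None of the 4 neutrophil and 8 T cell marker probe sets passed the level filter. The part of microglia or macrophages in the receptor differences was not tested.

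Tlr2 varied with the microglia list mean within groups at r = 0.76 (n = 15, permutation p = 0.00243) and rho = 0.704 (permutation p = 0.00672), which gave adjusted permutation p of 0.0656 and 0.118. Without water rats 7 and 8, the lowest in the list mean, r was 0.56 (permutation p = 0.0448, adjusted 0.303). Myd88 gave r = 0.36 with the same mean (permutation p = 0.221) and Nfkbia r = 0.34 (permutation p = 0.236), both without passing after adjustment (0.531 each).

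**Figure D3:**
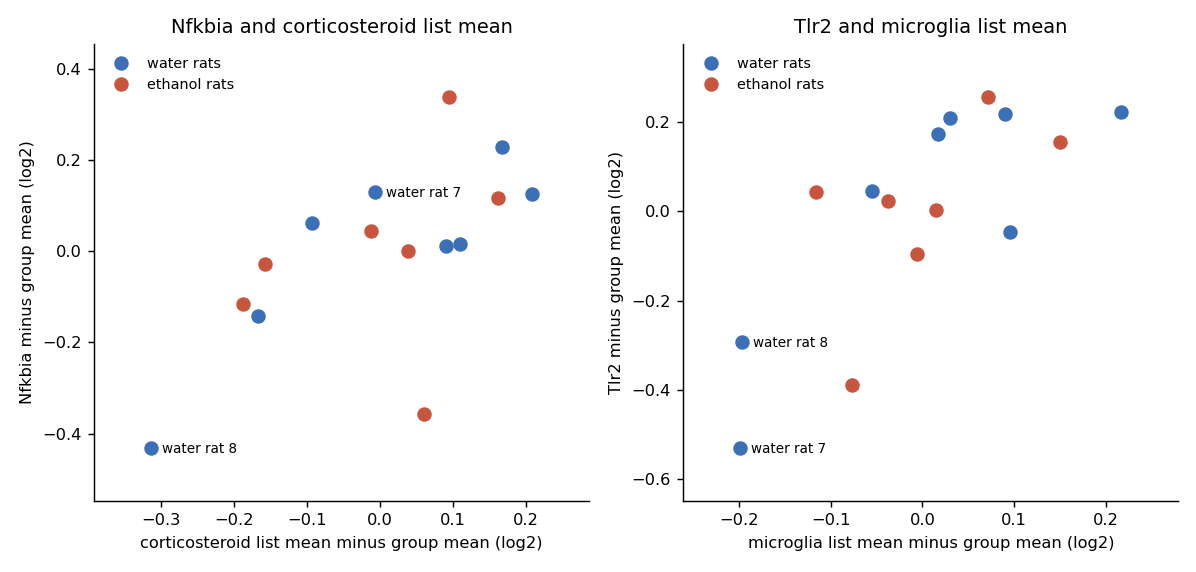
Each rat's value minus its group mean (log2): Nfkbia against the mean of the corticosteroid-responsive list (left) and Tlr2 against the mean of the microglia list (right), blue for water and red for ethanol rats. Water rat 8 is at the lower left in both plots, and r is 0.64 on the left and 0.76 on the right over 15 rats.

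Myd88, the adaptor shared by nearly all Toll-like receptors and the interleukin-1 receptor, ran from 8.24 to 8.79 with a median of 8.49 in ethanol rats and from 7.97 to 8.49 with a median of 8.43 in water rats. In 4 of 7 ethanol rats it exceeded every water rat, but only barely in rats 2 and 7 (8.492 and 8.513, against 8.491). Water rat 8, at 7.97, lay well below the next water rat at 8.29. The difference was 0.13 log2 units (SE 0.081, 95% interval -0.0403 to 0.30, limma adjusted p = 0.546), and without water rat 8 it was 0.0756.

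Hmgb1, a nuclear protein that becomes a Toll-like receptor ligand when cells release it, was read by 2 probe sets that did not point the same way. The brighter ran from 12.18 to 12.42 with a median of 12.28 in ethanol rats and from 12.15 to 12.42 with a median of 12.24 in water rats. Its difference was 0.0195 log2 units (95% interval -0.0811 to 0.12, limma adjusted p = 0.902). The dimmer ran from 6.42 to 6.61 with a median of 6.55 in ethanol rats and from 6.43 to 6.76 with a median of 6.61 in water rats. Its difference was -0.0911 (95% interval -0.20 to 0.0188, limma without the filter, adjusted p = 0.586), with all 7 ethanol rats below the water mean. The sign of the brighter probe set was lost without ethanol rat 5 (-0.0064) and without water rats 7 and 8 (-0.00418). The genome holds near-identical Hmgb1 copies, so what the probes read besides Hmgb1 is uncertain.

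The NF-kappaB subunits showed small differences that did not pass. Nfkb1, the precursor of p50, ran from 9.71 to 9.92 with a median of 9.85 in ethanol rats and from 9.66 to 9.84 with a median of 9.77 in water rats. In 4 of 7 ethanol rats it exceeded every water rat, by small amounts. The difference was 0.0452 log2 units (95% interval -0.038 to 0.13, limma adjusted p = 0.675). It kept its sign in all 26 alternative fits, from 0.0282 to 0.0628.

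Rela, which encodes p65 and carries the activation domain, ran from 9.43 to 9.63 with a median of 9.55 in ethanol rats and from 9.33 to 9.60 with a median of 9.56 in water rats. The ranges overlapped almost entirely. The difference was 0.0214 log2 units (95% interval -0.0735 to 0.12, limma adjusted p = 0.882), and its sign was lost without water rat 8 (-0.00547). For both subunits the interval leaves out a change of 0.3 log2 units in either direction.

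The inflammatory products Ccl2 and Il1b were dim and their groups overlapped widely. Ccl2, the chemokine that draws monocytes, ran from 4.50 to 5.06 with a median of 4.73 in ethanol rats and from 4.57 to 4.99 with a median of 4.81 in water rats. Its difference was 0.00814 log2 units (95% interval -0.18 to 0.20, limma without the filter, adjusted p = 0.986). Il1b, the precursor of interleukin-1 beta, ran from 5.70 to 6.01 with a median of 5.77 in ethanol rats and from 5.55 to 6.21 with a median of 5.86 in water rats. Its difference was -0.012 log2 units (95% interval -0.20 to 0.17, limma without the filter, adjusted p = 0.978). All 7 ethanol rats lay within the water range of Il1b. At this signal a change of either transcript in few cells was not detectable.

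**Figure D4:**
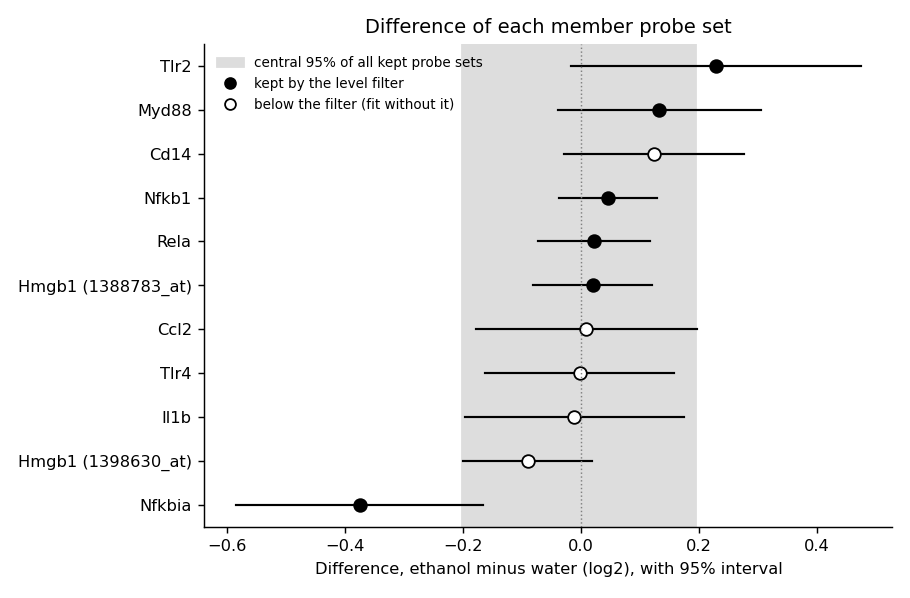
Difference of each member probe set, ethanol minus water, in log2 units and with its 95% interval, filled for kept and open for dim probe sets. The grey band holds the central 95% of differences of all kept probe sets, from -0.20 to 0.20. Nfkbia at -0.38 and Tlr2 at 0.23 lie outside it, and Tlr2 passed the filter only through its ethanol mean.

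The rest of the pathway was read from 4 further lists. They name 108 genes, of which 88 had a probe set with 1 symbol and 42 a kept one. Of their 56 kept probe sets 1 was called higher and 0 lower, against 0.387% and 0.542% of all kept probe sets. Among the 42 genes, each by its brightest kept probe set, 26 had higher means in ethanol rats. Without the filter 0 of 120 probe sets were called, and 17 had an unadjusted p below 0.05, which 9.94% of all probe sets had.

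In the list of other receptors, adaptors and kinases 0 of 21 kept probe sets were called, and the median over its 14 kept genes was 0.0544 log2 units, against 0.00624 over all kept probe sets. Tab3, which links TRAF6 to the kinase TAK1, was at 0.12 and 0.0731 in its 2 kept probe sets (limma adjusted p = 0.243 and 0.575). Traf6, the ubiquitin ligase downstream of Myd88, had 4 kept probe sets, all higher in ethanol rats by 0.0367 to 0.12 log2 units, none called. Ripk1, a kinase shared with tumour necrosis factor signalling, was at 0.14 (limma adjusted p = 0.492) and Traf3, an adaptor of the interferon arm, at -0.0646 (limma adjusted p = 0.574), with its dim probe set at 0.0986.

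Among the remaining NF-kappaB subunits, IkappaB kinases and inhibitors 0 of 13 kept probe sets were called, with a median over 11 genes of -0.00433 log2 units. These counts and the median include Hmgb3, a relative of Hmgb1 that is none of these (-4.27e-04). Nfkbib, the second classical IkappaB, had the same sign as Nfkbia at -0.12 (SE 0.0585, limma adjusted p = 0.427), and 6 of 7 ethanol rats were under the mean of water rats. Chuk, which encodes the kinase IKK-alpha, was at -0.0916 (limma adjusted p = 0.491), with all 7 ethanol rats below the water mean. Tnip2, a partner of the deubiquitinase A20, was at 0.13 (SE 0.0602, not called), and Nkrf, a repressor of NF-kappaB target genes, was at -0.062 (limma adjusted p = 0.490) and 0.00218 in its 2 probe sets. Tnfaip3, which encodes A20 and is itself a strong NF-kappaB target (named after its value was seen), was at 0.0734 (limma adjusted p = 0.618).

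Of the NF-kappaB target genes 1 of 12 kept probe sets was called higher, Irf1, against 0.387% of all kept probe sets. The median over 9 kept genes was 0.0561 log2 units. Irf1, an interferon regulatory factor, had a mean of 7.72 ± 0.06 (SD, n = 7) after ethanol against 7.49 ± 0.12 (SD, n = 8) after water, a difference of 0.22 (SE 0.05, limma adjusted p = 0.0438). Its call ended in 12 of the 15 fits that left out 1 rat, with adjusted p up to 0.107, and without the filter (adjusted p = 0.0703). In other fits the single call was another gene: Gadd45b in 1 and Irf5 in 2 of the fits that left out 1 rat, and Gadd45b without water rats 7 and 8 (adjusted p = 0.0499, against 0.0986 for Irf1). Gadd45b, a stress-induced gene, was at 0.32 (SE 0.0752, limma adjusted p = 0.0609), Icam1, the leukocyte adhesion molecule, at 0.17 (0.331) and Nos2, the inducible nitric oxide synthase, at -0.16 (0.397).

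Most inflammatory products were dim: 28 of the 40 probe sets of this target list fell below the filter. Of these, Casp1, the protease that matures interleukin-1 beta, was at 0.26 log2 units with all 7 ethanol rats above the water mean (SE 0.0567, limma without the filter, adjusted p = 0.0585). Il6 was at -0.16 with all 7 below it (adjusted p = 0.369), and Tnf was at 0.0156 and -3.08e-04 in its 2 probe sets (adjusted p = 0.946 and 0.998). These 3 were chosen after their values were seen. None passed.

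In the interferon arm, which some Toll-like receptors reach through Ticam1, 0 of 10 kept probe sets were called and the median over 8 genes was 0.0201 log2 units. Irf5, which Myd88 activates in myeloid cells, was at 0.23 with all 7 ethanol rats above the water mean (SE 0.0562, limma adjusted p = 0.0799). Rsad2, an antiviral interferon target, was at 0.32 (SE 0.14, limma adjusted p = 0.381), Stat2 at -0.0989 and -0.0496 in its 2 probe sets, and Irf3 at -0.0585. With the first principal component in the fit Irf1, Gadd45b and Irf5 were all called (limma adjusted p = 0.0113, 0.0106 and 0.0312). That fit called 2.66% of all kept probe sets, and the component leaves group differences unchanged and alters only their error.

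**Figure D5:**
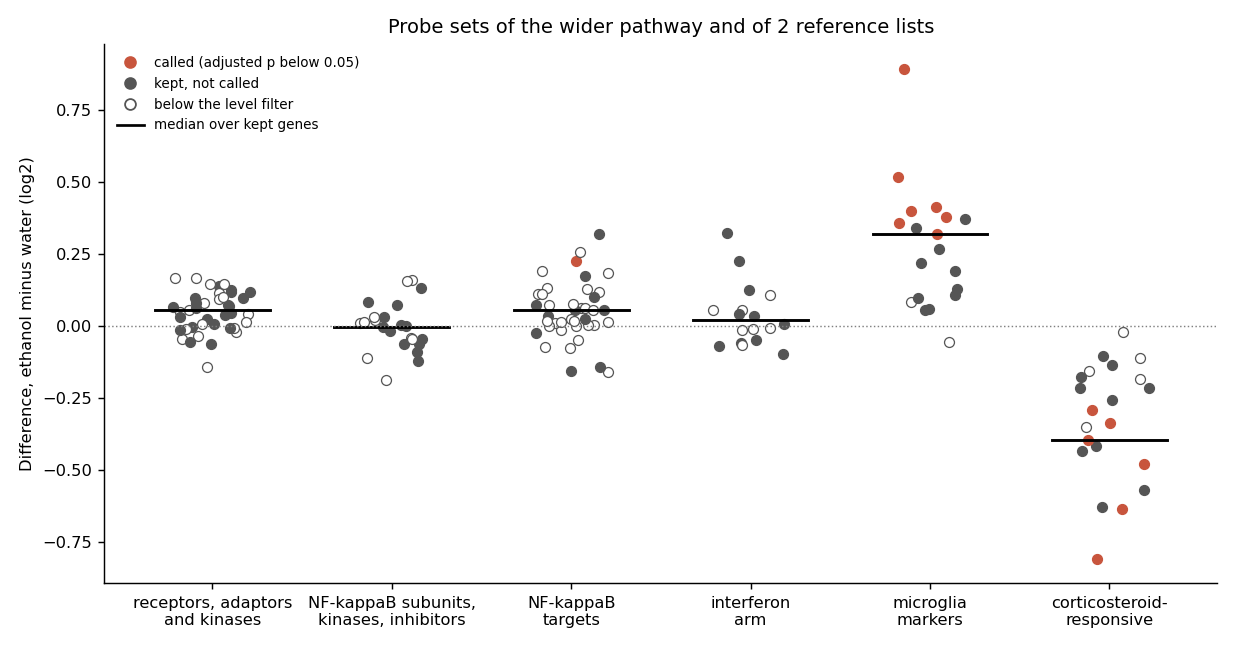
Difference of each probe set, ethanol minus water (log2), in 4 lists of the wider pathway and in the microglia and corticosteroid lists, red where called, grey where kept but not called and open where below the level filter. Black bars are medians over kept genes: they lie between -0.00433 and 0.0561 in the pathway lists, at 0.32 in microglia and at -0.40 in the corticosteroid list.

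RMA had made the distributions of the arrays alike, with medians between 7.73 and 7.79 log2 units, so these do not measure the quality of an array. Water rats 7 and 8 had the lowest medians, low array weights (0.68 and 0.57) and the highest scores on the first principal component (18.3 and 18.2). They were not alone in this: water rat 5 had a weight of 0.62, below that of water rat 7. Water rats 5, 1 and 3 lay at the other end of the component (-17.9, -15.5 and -14.6). Th, the dopamine synthesis enzyme that marks the dissected region, averaged 14.94 ± 0.22 (SD, n = 7) and 14.80 ± 0.26 (SD, n = 8) in ethanol and water rats, and the brighter probe set of the dopamine transporter Slc6a3 averaged 14.66 ± 0.25 (SD, n = 7) and 14.51 ± 0.25 (SD, n = 8).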

How the data were processed

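Affymetrix arrays were hybridized with RNA of 15 rats, amplified from 25 ng total RNA in 2 cycles per the labels' protocols. The log2 values were deposited by the authors and made with RMA per the submitters' processing notes, in a version that the sources used here do not state. RMA equalizes array distributions and compresses differences of dim probe sets. Gene names came from GEO's platform annotation, checked by Entrez number against RefSeq (GRCr8). Of 31042 probe sets, 20837 had 1 symbol, 425 several and 9780 none.

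The 18625 kept probe sets went into limma 3.58.1 (R 4.3.3): a two-sided moderated test on group means, without covariates and with Benjamini-Hochberg adjustment. Exact permutation tests used all 6435 divisions of the arrays, and correlations 100000 resamples within groups, in Python 3.11.15 with scipy 1.17.1. The fit was tested on simulated data. The number of arrays limits the precision (median SE 0.056 log2 units). No label gives a batch of dissection, extraction or scanning, so none was tested. Each array is a separate animal by its title, and litters and cages are not named.

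Members and lists were chosen with earlier results of these data known. The text names all members, the called genes and the 4 genes with the smallest p of each wider list and of the microglia and corticosteroid lists, Th and Slc6a3, and others where it says so. Alternatives changed the filter, scaling, variance model, weights, covariate, pairing, test and arrays used.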

Additional observations from a re-analysis of the deposited data

Results flagged for a closer look

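In 94 groups of values (11 member probe sets and the named probe sets of the other lists, each in ethanol and in water rats) the gap between the most extreme rat and its neighbour was set against the group's range with Dixon's test. It passed in 6, and chance gives about 1 in 20. Among members these were the Cd14 value of ethanol rat 4 (6.97, next 6.76) and the Myd88 value of water rat 8 (7.97, next 8.29). Others were Tnip2 (8.25) in ethanol rat 7, Rsad2 (8.66) in ethanol rat 4 and the brighter Trem2 probe set (8.53) in ethanol rat 8, each the highest of its group. The last was Ctss (13.25) in ethanol rat 1, the lowest. Water rat 8 also had the lowest Nfkbia (9.73) and Rela (9.33) of the water rats.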

How the results depend on the processing

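The count of called members was 0 without the filter, with the 60th percentile as filter, with median-centred or again quantile-normalized arrays, with a trend and robust prior, with the replicate block and by exact permutation test. It was 1, always Nfkbia, with array weights, with the first principal component and without water rats 7 and 8, and 0 to 1 over the fits that left out 1 rat. The count over all kept probe sets, 173, was 495 with the first principal component, 61 by exact permutation test and 100 to 180 with 1 rat left out. The permutation test could call only probe sets at its smallest possible p, so its counts say little about smaller differences. In the wider lists the count of 1 was 0 without the filter, with the stricter filter, after renewed quantile normalization, in the replicate block, with its 14 arrays unblocked and by permutation, 3 with the first principal component and 0 to 1 with 1 rat left out, where the gene called was Irf1 in 3 fits, Irf5 in 2 and Gadd45b in 1. The differences of Rela ran from -0.00547 to 0.0399 and those of the brighter Hmgb1 probe set from -0.0064 to 0.0444 with 1 rat left out. Signs turned for Rela without water rat 8 (-0.00547) and for the brighter Hmgb1 probe set without ethanol rat 5 (-0.0064), without water rats 7 and 8 (-0.00418) and as the mean of both probe sets (-0.0358); these causes were not tested. With the animal number of the labels as a replicate block, 59 probe sets were called against 130 in the same 14 arrays unblocked. The numbers showed no clear pairing: deviations of same-numbered rats correlated from -0.41 to 0.29, over 0.1 in 4 of 7 pairs, and 2 of 14 rats correlated best with their own number. So few pairs cannot exclude a shared litter or handling. In these 14 arrays the block lowered the unadjusted limma p of Nfkbia from 0.0029 to 4.08e-04. It also lowered those of Tlr2, Myd88 and the brighter Hmgb1 probe set, and raised those of Nfkb1 and Rela. Tlr2, Myd88 and Nfkb1 kept their sign and stayed uncalled in all alternatives in which they were tested. Signal over background of dim probe sets is known only through their level.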
